A study of Arabidopsis thaliana with 9 samples.

Results

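The first steps of tetrapyrrole synthesis were examined in 8 genes of Arabidopsis, which encode enzymes of 5-aminolevulinic acid (ALA) synthesis (HEMA2, HEMA3 and GSA1) and of porphyrin synthesis (HEMB1, hemb2, HEME1, HEME2 and hemf2). They were found by symbol, without regard to case, among the probe sets of the ATH1 array to which the platform annotation gives a single gene. Each of the 8 symbols matched 1 probe set, so that the 8 genes were 8 of 22746 probe sets tested. Transcripts were measured in seedlings of 3 kinds, with 3 arrays of each: the gun4-1 mutant in the Col-0 background without an added agent, wild-type Col-0 grown on medium with 10 µM gabaculin (GAB), and wild-type Col-0 without GAB. All seedlings were kept in darkness for 3 days and then in light for 6 h. Each value is a log2 signal, in which a difference of 1 is a doubling, calculated by the authors with the robust multi-array average.

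ALA is the common precursor of chlorophyll, heme, siroheme and phytochromobilin, and in plants it is made in the plastid from glutamate. Glutamyl-tRNA reductase (GluTR), encoded by the HEMA genes, forms glutamate-1-semialdehyde, and an aminotransferase (GSAT), encoded by the GSA genes, turns it into ALA. ALA dehydratase joins ALA molecules into porphobilinogen, and after the ring has been closed uroporphyrinogen III decarboxylase and coproporphyrinogen III oxidase trim its side chains on the way to protoporphyrin IX. GAB inactivates GSAT. GUN4 is a plastid protein that stimulates Mg chelatase, the first enzyme of the chlorophyll branch, and GUN4 itself was not analysed here.

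Among the genes of ALA synthesis, HEMA2 had a higher signal in gun4-1 and with GAB than in Col-0, by 1.44-fold and 1.24-fold, whereas GSA1 and HEMA3 lay within 0.13 log2 units of Col-0 in both. Of the 5 porphyrin genes, hemf2 was 1.14-fold and 1.18-fold higher, and the other 4 had fold changes between 0.888 and 1.09. Called changes required a Benjamini-Yekutieli adjusted p of at most 0.05 in limma, over all 22746 probe sets, and a fold change above 1.5 or below 0.667. In gun4-1 against Col-0, 0 of the 8 members passed both limits, beside 6.90% of all probe sets. With GAB against Col-0 it was 0 of 8, beside 1.46%, and in gun4-1 against GAB 0 of 8, beside 3.80%.

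**Figure D1:**
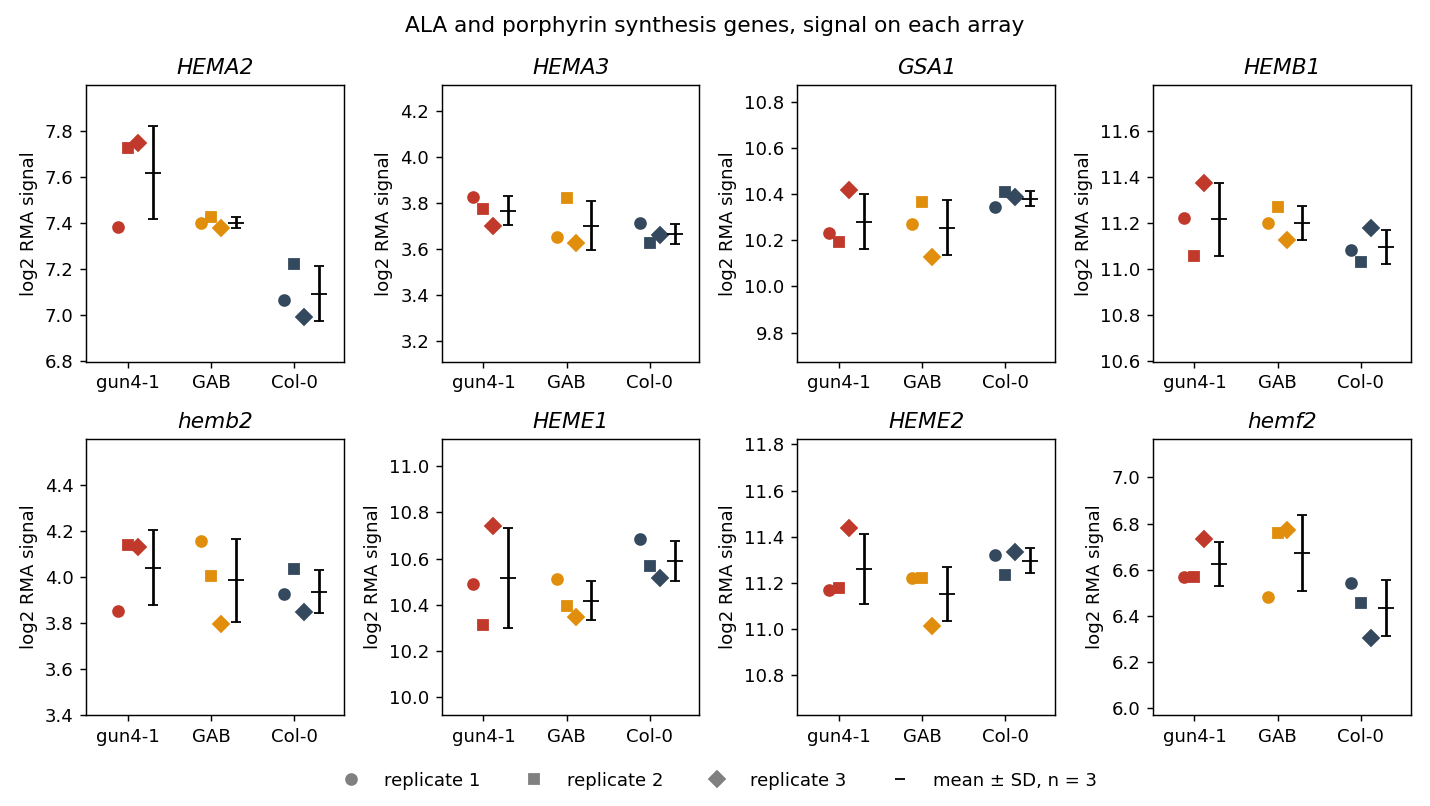
Log2 signal (vertical axis, a span of 1.2 in every panel) of the 8 members on each array of gun4-1, GAB and Col-0. Symbols mark the replicate number, and bars show the mean ± SD of 3 arrays. HEMA2 lies between 7.38 and 7.75 in gun4-1, between 7.38 and 7.42 with GAB and between 6.99 and 7.22 in Col-0, and is the only panel in which both sets of arrays lie above every Col-0 array.

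HEMA2 (At1g09940) encodes a GluTR isoform known from roots and other non-green parts as well as from shoots. Its log2 signals were 7.38, 7.72 and 7.75 in gun4-1. The GAB arrays had 7.40, 7.42 and 7.38, and the Col-0 arrays 7.07, 7.22 and 6.99. All arrays of gun4-1 and of GAB therefore lay above all of Col-0, while gun4-1 replicate 1 lay within the range of the GAB arrays and the other gun4-1 arrays above it. The means were 7.62 ± 0.20 in gun4-1, 7.40 ± 0.02 with GAB and 7.09 ± 0.12 in Col-0 (SD, n = 3 each).

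In gun4-1 the log2 fold change of HEMA2 was 0.53 (standard error 0.10, 95% confidence interval 0.30 to 0.75, limma adjusted p = 0.0323), or 1.44-fold with an interval of 1.23 to 1.68. It passed the limit on the adjusted p, as the only 1 of 8 members beside 10.5% of all probe sets, and missed the fold limit of 1.5. In a fit of only gun4-1 and Col-0 the adjusted p was 0.118, above the limit. By the adjusted p alone 0 of 8 members passed with GAB, beside 1.84%, and 0 of 8 in gun4-1 against GAB, beside 4.90%. The side of the fold limit depended on the scaling of the arrays: the log2 fold change was 0.59 after quantile normalization (limma adjusted p = 0.00944) and 0.62 after median centring of the arrays (adjusted p = 0.00578), and HEMA2 passed both limits in each. Median centring moved the median log2 fold change of all probe sets in gun4-1 to 0.12, against 0.02 as deposited. Of all probe sets, 1535 passed both limits in gun4-1 after quantile normalization and 1627 after median centring, against 1570 as deposited. HEMA2 also passed both limits without gun4-1 replicate 1, the lowest of the gun4-1 arrays (0.64, adjusted p = 0.00623). Without any other single array the adjusted p was above the limit, between 0.0528 and 0.184, also when a GAB array was left out, which is not part of the comparison and enters only the estimate of the spread.

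With GAB the log2 fold change of HEMA2 was 0.31 (95% confidence interval 0.08 to 0.53, adjusted p = 1 from limma). The unadjusted p was 0.0119, a limit of 0.05 that 19.7% of all probe sets passed. In gun4-1 compared directly with GAB it was 0.22 (interval -0.01 to 0.44, adjusted p = 1), so that a larger value in the mutant than in treated seedlings was not shown. Both comparisons with Col-0 use the same 3 Col-0 arrays.

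**Figure D2:**
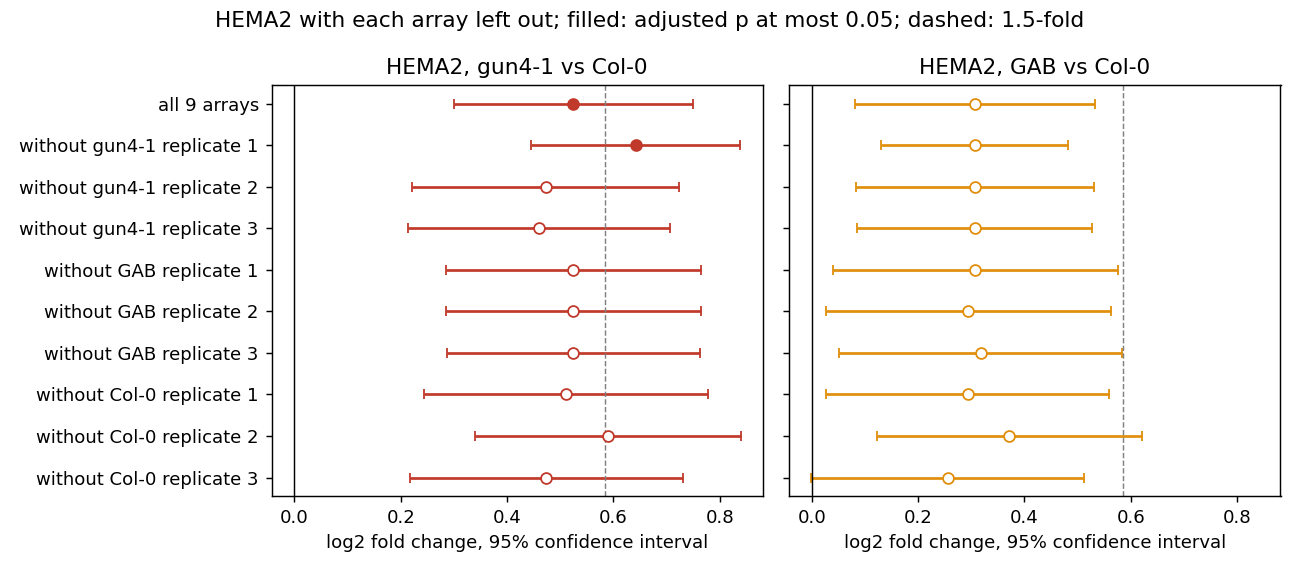
Log2 fold change of HEMA2 (horizontal axis) with its 95% confidence interval, in gun4-1 against Col-0 (left) and GAB against Col-0 (right), with all 9 arrays and with each array left out in turn. Filled points have an adjusted p of at most 0.05, and the dashed line is the 1.5-fold limit. In gun4-1 the values run from 0.46 to 0.64 and only 2 points are filled, those of all arrays and without gun4-1 replicate 1; with GAB they run from 0.26 to 0.37.

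HEMA3 (At2g31250) encodes a further GluTR isoform. Its signals were 3.82, 3.77 and 3.70 in gun4-1, 3.65, 3.82 and 3.63 with GAB, and 3.71, 3.63 and 3.66 in Col-0, so that the groups overlapped. Its mean of 3.71 over the 9 arrays lay below 4.17, the lower quartile of all probe sets, and the table used here holds no detection calls. The log2 fold changes were 0.10 in gun4-1 (interval -0.07 to 0.27) and 0.03 with GAB (-0.14 to 0.21). The difference between the changes of HEMA2 and HEMA3 was not tested.

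GSA1 (At5g63570) encodes GSAT, the enzyme that GAB inactivates. The signals were 10.23, 10.19 and 10.42 in gun4-1, 10.27, 10.36 and 10.13 with GAB, and 10.34, 10.41 and 10.39 in Col-0. Replicates 1 and 2 of gun4-1 lay below all of Col-0 and replicate 3 just above, and of the GAB arrays replicate 2 lay within the Col-0 range and the others below it. The log2 fold change was -0.10 in gun4-1 (95% confidence interval -0.29 to 0.09) and -0.13 with GAB (-0.32 to 0.07), which leaves fold changes of GSA1 between 0.802 and 1.05 for treated seedlings. In gun4-1 against GAB it was 0.03 (-0.17 to 0.22), and the log2 fold changes of all members in that comparison lay between -0.05 and 0.22.

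HEMB1 (At1g69740) and hemb2 (At1g44318) encode ALA dehydratase. HEMB1 had signals of 11.22, 11.05 and 11.37 in gun4-1, 11.20, 11.27 and 11.12 with GAB, and 11.08, 11.03 and 11.18 in Col-0. Its log2 fold changes were 0.12 in gun4-1 (interval -0.08 to 0.32) and 0.10 with GAB (-0.10 to 0.30), with overlapping groups in both. The signals of hemb2 lay between 3.85 and 4.14 in gun4-1, between 3.80 and 4.16 with GAB and between 3.85 and 4.03 in Col-0, again with a mean, 3.99, below the lower quartile. Its log2 fold changes were 0.10 (-0.13 to 0.34) and 0.05 (-0.19 to 0.29).

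HEME1 (At3g14930) and HEME2 (At2g40490) encode uroporphyrinogen III decarboxylase, which acts where the siroheme branch leaves the pathway. HEME1 had 10.49, 10.31 and 10.74 in gun4-1, 10.51, 10.39 and 10.35 with GAB, and 10.68, 10.57 and 10.52 in Col-0. HEME2 had 11.17, 11.18 and 11.44 in gun4-1, 11.22, 11.22 and 11.02 with GAB, and 11.32, 11.23 and 11.34 in Col-0. For both genes every GAB array lay below every Col-0 array, by a narrow margin, and neither passed the test (log2 fold change -0.17 for HEME1 and -0.15 for HEME2, unadjusted p = 0.134 and 0.151 from limma). In gun4-1, where replicate 3 had the highest signal of all 9 arrays for both, the log2 fold changes were -0.07 (interval -0.31 to 0.16) and -0.04 (-0.24 to 0.17), and both turned to values above 0 after median centring (0.024 and 0.062).

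The gene hemf2 (At4g03205) is annotated as a coproporphyrinogen III oxidase. It had 6.57, 6.57 and 6.73 in gun4-1, 6.48, 6.76 and 6.77 with GAB, and 6.54, 6.46 and 6.30 in Col-0. All gun4-1 arrays lay above Col-0, replicates 1 and 2 with exactly the same value, and 1 GAB array lay within the Col-0 range. The log2 fold change was 0.19 in gun4-1 (interval -0.03 to 0.41, unadjusted p = 0.0830 from limma) and 0.24 with GAB (0.02 to 0.46, unadjusted p = 0.0361), with an adjusted p of 1 in each.

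**Figure D3:**
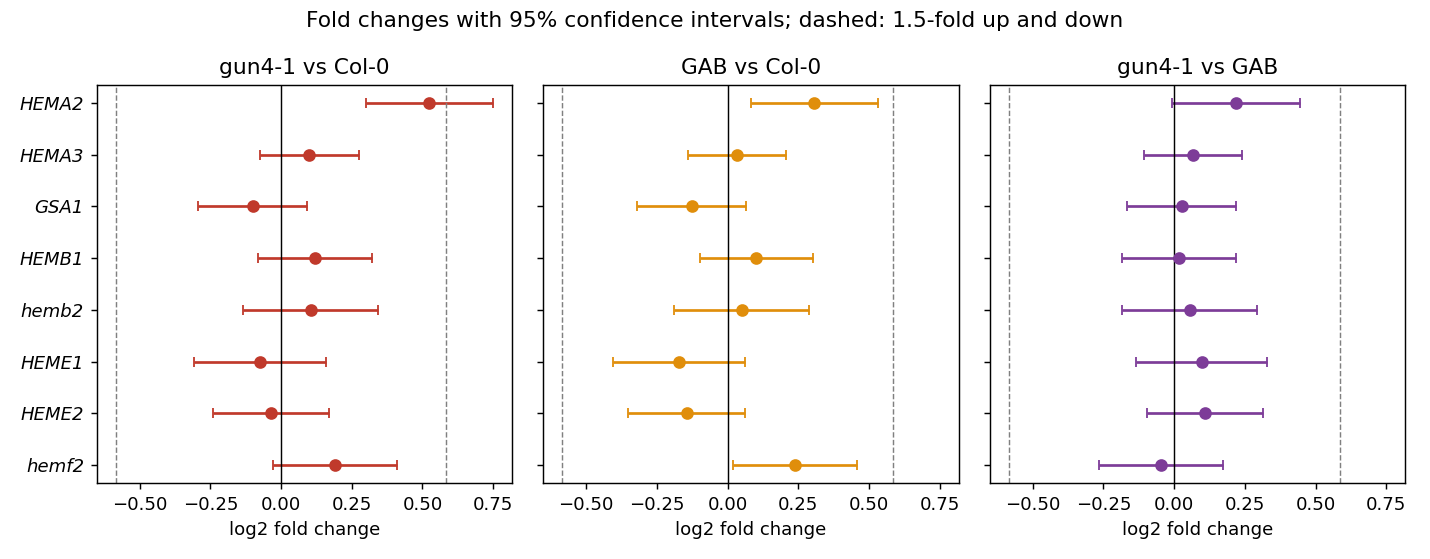
Log2 fold change (horizontal axis) of each member with its 95% confidence interval from limma, in gun4-1 against Col-0, GAB against Col-0 and gun4-1 against GAB. Dashed lines mark the fold limits of 0.667 and 1.5. Of the 24 intervals only that of HEMA2 in gun4-1, 0.30 to 0.75, crosses a dashed line.

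The precision was sufficient to set bounds on most of these changes in array signal. For HEMA3 and hemb2, with mean signals below the lower quartile and no detection calls, a bound on signal need not be one on transcript. The 95% confidence interval, taken for each gene alone, lay wholly between the fold limits for 7 of 8 members in gun4-1, for 8 of 8 with GAB and for 8 of 8 in gun4-1 against GAB. Among all probe sets this held for 80.0%, 90.3% and 85.6%, so that nothing particular to these genes is read from it. Standard errors ran from 0.08 to 0.11 log2 units. For each member they were the same in every comparison, since the fit takes the spread as equal in all groups. The median SD of the members was 0.155 in gun4-1, 0.113 with GAB and 0.0803 in Col-0, so the bounds for gun4-1 may be too narrow. With these standard errors the adjusted p would have passed from an upward fold change of between 1.30 and 1.43 in gun4-1, depending on the member. With GAB it would have passed from between 1.38 and 1.55. Smaller changes would not have passed the adjusted p, whose limit depends on the adjustment over all probe sets as well as on these errors.

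The members were also set beside all probe sets by looser criteria. At an unadjusted p under 0.05 in limma, 1 of 8 members (HEMA2) passed in gun4-1, beside 35.3% of all probe sets, and 2 of 8 (HEMA2 and hemf2) passed with GAB, beside 19.7%. In gun4-1 against GAB it was 0 of 8, beside 28.1%. Groups did not overlap for 2 of 8 in gun4-1 (HEMA2 and hemf2), beside 36.0%, for 3 of 8 with GAB (HEMA2, HEME1 and HEME2), beside 24.0%, and for 0 of 8 in gun4-1 against GAB, beside 29.8%. The median log2 fold change of the 8 members was 0.10 in gun4-1, beside 0.02 over all probe sets, 0.04 with GAB, beside 9.5e-06, and 0.06 in gun4-1 against GAB, beside 0.02. An exact permutation test of a single gene cannot give a two-sided p below 0.1 with 3 arrays against 3, so none is given.

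**Figure D4:**
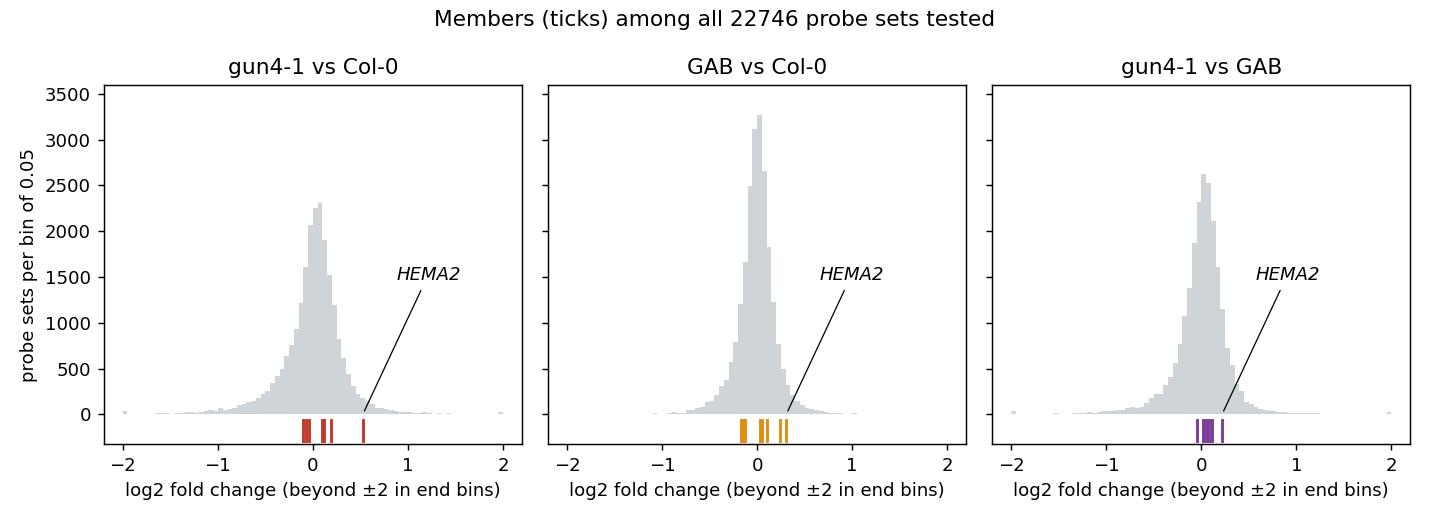
Histograms of the log2 fold change (horizontal axis) of all 22746 probe sets, in bins of 0.05, with the 8 members as ticks below, in gun4-1 against Col-0, GAB against Col-0 and gun4-1 against GAB. Values beyond 2 in either direction are in the end bins. The ticks lie between -0.10 and 0.53, between -0.17 and 0.31 and between -0.05 and 0.22, with HEMA2 on the right in each.

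The order of the arrays within each group was read for the members, and the largest counts over all arrays are given first. In gun4-1, replicate 3 had the highest of the 3 signals for 6 of 8 members (HEMA2, GSA1, HEMB1, HEME1, HEME2 and hemf2), and this array was the highest of its group for 37.8% of all probe sets. Of the GAB arrays, replicate 3 had the lowest signal for 7 of 8, all but hemf2, and was the lowest for 35.9% of all probe sets. On the remaining arrays, the members with the highest signal numbered from 1 (gun4-1 replicates 1 and 2) to 4 (GAB replicate 2). Those with the lowest numbered from 0 (GAB replicate 2) to 4 (Col-0 replicate 3). The members on 1 array are not independent observations of it. The SD between arrays had a median over the members of 0.155 in gun4-1, 0.113 with GAB and 0.0803 in Col-0, beside 0.113, 0.0950 and 0.0969 over all probe sets.

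Markers of the organs in a seedling were read beside HEMA2. The expansin gene EXPA7, the marker of root hairs that was measured out of 6 listed, had signals of 5.86, 6.48 and 6.10 in gun4-1, 5.17, 5.37 and 5.34 with GAB, and 5.44, 5.61 and 5.70 in Col-0. Like HEMA2 it was higher on every gun4-1 array than on every Col-0 array (log2 fold change 0.56, adjusted p = 0.114 from limma). Its lowest gun4-1 value was also in replicate 1. Both traits are common: these groups did not overlap for 36.0% of all probe sets, and gun4-1 replicate 1 was the lowest of its group for 35.6%. With GAB, where HEMA2 was higher, EXPA7 lay below Col-0 (-0.29, adjusted p = 1 from limma). In gun4-1 against GAB, EXPA7 was 1.81-fold higher and passed both limits (adjusted p = 0.0149). Its part in the values of HEMA2 was not tested, and in seedlings fewer cells of a kind and less RNA per cell cannot be told apart. Of 6 green tissue markers listed, 2 were measured, RCA and LHCB4.2, whose mean log2 signal was between 13.70 and 13.81 in gun4-1, between 13.73 and 13.88 with GAB and between 13.78 and 13.88 in Col-0. They differed in sign: LHCB4.2, which lay lower on every gun4-1 array than on every Col-0 array, had log2 fold changes of -0.13 in gun4-1 and -0.11 with GAB, and RCA had 0.03 and 0.09, with overlapping groups (adjusted p = 1 from limma in each). Of 5 seed genes listed, none has a probe set named here.

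Genes with a pattern like that of HEMA2, the member with the largest change, were taken from the 13512 other probe sets with a single gene. Likeness was the root mean square difference of log2 signals over the 9 arrays, each probe set centred on its own mean, and HEMA2 itself had a root mean square of 0.242. The nearest were At1g60730 (0.0688), At4g17370 (0.0747), GME, which encodes an epimerase of ascorbate synthesis (0.0762), At2g40935 (0.0768) and At5g54300 (0.0791). In gun4-1 their log2 fold changes were between 0.47 and 0.56, and with GAB between 0.26 and 0.41. Being chosen for likeness, they carry no test of their own here.

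**Figure D5:**
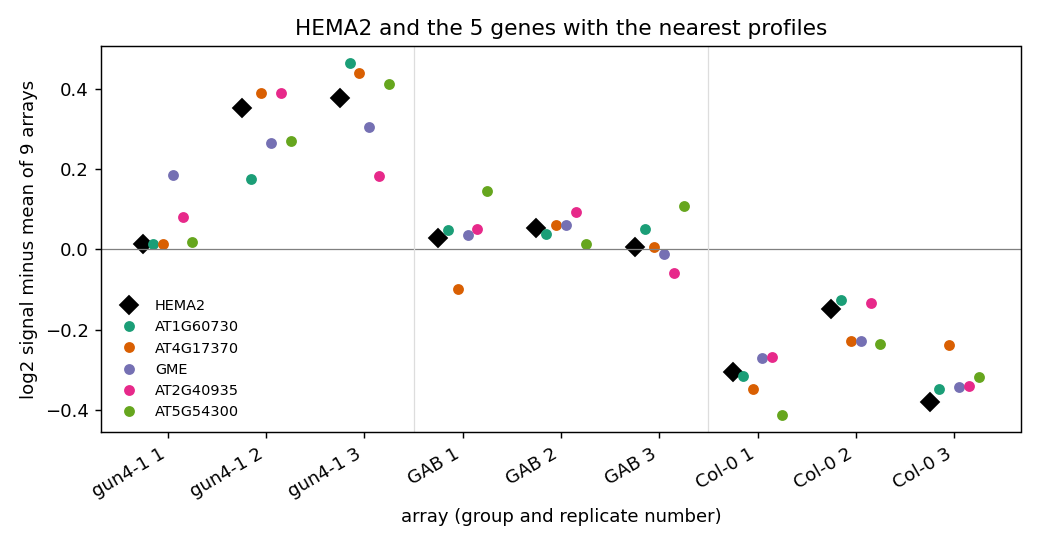
Log2 signal minus the mean of the 9 arrays (vertical axis) for HEMA2, drawn as diamonds, and the 5 genes nearest to it, drawn as circles, on each array (horizontal axis, group and replicate number). The root mean square difference from HEMA2 is 0.0688 to 0.0791, and HEMA2 itself has its lowest gun4-1 value in replicate 1.

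Of 43 genes listed for the whole tetrapyrrole pathway, 14 have a probe set named here, the 8 members and 6 others. HEMA1, GSA2, HEMC, HEMD, the protoporphyrinogen oxidase genes and all 7 listed genes of the heme branch were among those not analysed here. Of 7 genes listed for ALA synthesis 3 were measured, and of 10 listed for porphyrin synthesis 5, so that the members need not stand for every isoform of a step. Among the 6 others, PORB, a light-dependent protochlorophyllide oxidoreductase, fell with GAB, with signals of 10.82, 10.35 and 10.56, against 11.56, 11.45 and 11.42 in Col-0 (a log2 difference of -0.90 ± 0.12, standard error, limma adjusted p = 0.0108). It was not called without Col-0 replicate 1 or 2 or without GAB replicate 2 or 3. In gun4-1 PORB had 11.14, 10.89 and 11.23, also below every Col-0 array (log2 fold change -0.39, limma adjusted p = 0.374). In gun4-1 against GAB its log2 fold change was 0.51 (limma adjusted p = 0.161), so that a larger fall with GAB than in gun4-1 was not shown. The other 5 passed in no comparison with both limits: NOL, for chlorophyll b reductase, had log2 fold changes of -0.01 in gun4-1 and 0.33 with GAB. CHLP, for geranylgeranyl reductase, had -0.16 and -0.08, CHLI2, for a subunit of Mg chelatase, 0.03 and -0.06, CHLM, for the Mg protoporphyrin IX methyltransferase, 0.07 and -0.01, and SIRB, for the ferrochelatase of siroheme synthesis, 0.02 and -0.03. The median of these 6 was 0.00 in gun4-1 and -0.04 with GAB.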

How the data were processed

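RNA of seedlings was hybridized to 9 ATH1 arrays, 3 per group, and samples were grouped by their titles. For each probe set the table gives a log2 signal, obtained by the authors with the robust multi-array average (background correction, quantile normalization, and a summary over the probes of a probe set). Affymetrix Expression Console is the tool given in the submitters' processing notes, with no version stated. Normalization of this kind draws arrays together and can understate their spread. The medians of the arrays lay between 6.41 and 6.57, with all gun4-1 arrays below the others. They were 6.41, 6.48 and 6.44 in gun4-1, 6.49, 6.50 and 6.52 with GAB, and 6.50, 6.57 and 6.55 in Col-0. The labels do not say what was separate between replicates, and the study's statistical note states only in general that experiments were repeated independently. The p-values therefore set each difference against the spread between these arrays, and the number of arrays limits the precision.

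Without the 64 control probe sets, 22746 remained and were fitted in limma 3.58.1 (R 4.3.3), with the 3 groups in 1 fit (6 residual and 5.91 prior degrees of freedom). As in the study's methods, a call required a p of at most 0.05 after Benjamini-Yekutieli adjustment together with a fold change above 1.5 or below 0.667. Confidence intervals of 95% use the moderated errors and are not adjusted. The fit was tested on simulated data.

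A single gene is named for 13513 probe sets, 503 match several genes and 8730 are unnamed here; listed genes without a named probe set were not analysed here. All 8 members matched a RefSeq locus. Lists covered ALA and porphyrin synthesis, the Mg, Fe and siroheme branches, and green tissue, root and seed markers. Named genes are the members, other tetrapyrrole genes that were called with up to 4 more, and the 5 genes nearest in pattern to the member with the largest change; the remaining tetrapyrrole gene is named as well. The members and lists were chosen with earlier results of these data known.

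Alternatives covered the p adjustment, fold limit, scaling, dim probe sets, variance model, array weights, the groups in the fit, the methods' t-test, the replicate number as a block and each array left out. That t-test is taken from the study's general statistical note, whereas the study tested its arrays with limma.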

Additional observations from a re-analysis of the deposited data

How the results depend on the processing

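Of the 8 members, 0 were called in gun4-1 against GAB under every alternative run, and with GAB against Col-0 under all but the methods' t-test, which was run without the fold limit, with an unadjusted p (1, HEMA2, at 1.24-fold). In gun4-1 against Col-0 the count was 1, HEMA2, without the fold limit, after quantile normalization, with arrays centred on their median and by the unadjusted t-test, again without the fold limit, and 0 to 1 with each array left out. After Benjamini-Hochberg adjustment that t-test called 0 members (HEMA2 in gun4-1, adjusted p = 0.109). The 6 other tetrapyrrole genes gave 1 call with GAB, which became 2 by the unadjusted t-test, 0 by that test after adjustment, and 0 to 1 with each array left out. In gun4-1 against Col-0 and against GAB their 0 became 2 by the unadjusted t-test. HEMA3 and hemb2 have no value without dim probe sets. Changes near 0 turned sign: in gun4-1 against Col-0 with arrays centred on their median, HEME1 was 0.024 and HEME2 0.062. In gun4-1 against GAB, HEMA3 was -0.0041, hemb2 -0.019 and hemf2 0.018 after quantile normalization, and hemf2 was 0.011 with arrays centred. With each array left out, the values ran from -0.027 to 0.071 (HEMA3) and -0.036 to 0.14 (hemb2) with GAB, and from -0.19 to 0.027 (HEME1) and -0.12 to 0.010 (HEME2) in gun4-1. For gun4-1 against GAB they ran from -0.042 to 0.082 (GSA1), -0.060 to 0.10 (HEMB1), -0.039 to 0.15 (hemb2), -0.017 to 0.20 (HEME1) and -0.14 to 0.0027 (hemf2). The cause was not tested. In the comparison of only 2 groups HEMA2 had an adjusted p of 0.118 in gun4-1. All probe sets called were 332 with GAB, 1570 in gun4-1 and 864 in gun4-1 against GAB with all arrays. With each array left out they were 181 to 316, 1307 to 1551 and 646 to 852. In gun4-1 against Col-0, 2381 passed without the fold limit. With both limits, 1535 were called there after quantile normalization and 1627 with arrays centred on their median. By the t-test, without the fold limit and so not comparable with these counts, 3642, 5939 and 4625 passed unadjusted, and 73, 1663 and 432 after adjustment.

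The labels number the replicates alike in each group. Deviations of same-numbered arrays correlated between -0.07 and 0.26 across probe sets, and 6 of 9 such pairs were above 0.1. For arrays of different number the correlations ran from -0.34 to 0.19. Those above 0.1 among them were 0.19, 0.17, 0.17, 0.11 and 0.11. Pairing by number was not established, since not every pair was above 0.1 and not every array correlated best with its own number. With the replicate number as a block 0 of 8 members were called in each comparison, and 380, 1643 and 944 of all probe sets were. HEMA2 then had an adjusted p of 0.0269 in gun4-1.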
